A study of Mus musculus with 11 samples.

Results

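The 10 Notch pathway genes described here were 4 receptor genes (Notch1, Notch2, Notch3 and Notch4), 3 ligand genes (Dll4, Jag1 and Jag2) and 3 target genes (Hey1, Heyl and Hes1). They were taken by gene symbol, and all 10 were present among the 23507 gene rows of a count table covering 3261 single cells. The cells were isolated from the stromal vascular fraction, the non-adipocyte cells, of mouse perigonadal white adipose tissue (pgWAT). Their RNA was sequenced with Smart-seq2, a plate-based full-length method without molecular identifiers. The 3 male mice (1, 4 and 8) and the 4 female mouse identifiers (2, 3, 5 and 6_7, the last covering animals 6 and 7 sorted onto shared plates and counted as 1) were 12 to 20 weeks old. Every animal carried the Tg(Pdgfrb-eGFP) reporter, in which Pdgfrb regulatory sequence drives GFP, on a C57BL6/J background, and the labels name no treatment. Cells were sorted by GFP, CD31 and, on 2 plates, DPP4 after CD45-positive cells had been gated out, so the macrophages below are the ones this gate let through. No plate held both sexes.

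Notch receptors are membrane proteins that are cleaved when a Delta-like or Jagged ligand on a neighbouring cell binds them. The released intracellular part enters the nucleus, joins the DNA-binding protein RBPJ and switches on genes of the Hes and Hey families, which encode transcriptional repressors. In blood vessels Dll4 and Notch1 are known for restraining sprouting and for arterial identity, Notch4 is expressed mainly in endothelium, Notch3 is known for smooth muscle and pericyte maintenance, and Jag1 on endothelium is a ligand for mural Notch3. In fat, Notch activity has been linked to the restraint of adipocyte differentiation and browning.

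On GRCm38 (mm10), with GENCODE vM21 gene models, the receptor genes lie at chr2:26457903-26516663 (Notch1, minus strand), chr3:98013527-98150361 (Notch2, plus), chr17:32120820-32166852 (Notch3, minus) and chr17:34564268-34588503 (Notch4, plus). The ligand genes lie at chr2:119325784-119335962 (Dll4, plus), chr2:137081456-137116644 (Jag1, minus) and chr12:112907819-112929776 (Jag2, minus). The target genes lie at chr3:8663359-8667256 (Hey1, minus), chr4:123233556-123249875 (Heyl, plus) and chr16:30064384-30067796 (Hes1, plus). All 10 are protein coding, and counts were summed over the whole gene. Notch1, Dll4 and Notch3 overlap transcripts of the other strand that are also in the table (0610009E02Rik and Gm13568, Gm14207, and Gm17276), and Notch2 overlaps Gm42819 and Gm42820 on its own strand. The sources used here do not say whether the counting used strand, so reads of these partners cannot be told apart from those of the members.

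The promoters of 2 members that were high in endothelial cells and of the member that was high in mural cells are shown because their levels set the cell classes apart. They are the 250 bases before the RefSeq start of the gene, read 5′ to 3′ on the strand of the gene on GRCm38.p6, at chr17:34564045-34564294 (Notch4, plus strand), chr2:119325534-119325783 (Dll4, plus) and chr17:32166891-32167140 (Notch3, minus). RefSeq and GENCODE place the starts of Notch4 and Notch3 differently. The Notch4 window therefore reaches into the GENCODE gene given above, and the Notch3 window stops short of it. Capitals mark GGAA, the core bound by ETS family factors, on either strand, where the other strand reads TTCC.
Notch4: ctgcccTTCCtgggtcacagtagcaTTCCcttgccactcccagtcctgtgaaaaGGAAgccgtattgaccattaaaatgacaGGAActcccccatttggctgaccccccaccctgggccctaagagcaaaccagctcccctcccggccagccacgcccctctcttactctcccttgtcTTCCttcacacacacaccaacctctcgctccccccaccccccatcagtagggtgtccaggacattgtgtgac
Dll4: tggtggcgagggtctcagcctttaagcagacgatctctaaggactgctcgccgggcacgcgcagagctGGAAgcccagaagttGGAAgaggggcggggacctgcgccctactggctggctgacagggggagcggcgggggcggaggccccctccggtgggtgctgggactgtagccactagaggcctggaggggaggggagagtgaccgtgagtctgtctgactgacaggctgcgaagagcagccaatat
Notch3: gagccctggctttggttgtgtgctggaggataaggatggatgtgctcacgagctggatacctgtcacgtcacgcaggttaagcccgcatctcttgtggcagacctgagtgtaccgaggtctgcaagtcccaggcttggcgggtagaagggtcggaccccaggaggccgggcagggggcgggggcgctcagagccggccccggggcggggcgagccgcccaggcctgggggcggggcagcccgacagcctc
The Notch4 window held 5 matches and the Dll4 window 2, and the Notch3 window held none of these letters. Of the windows not printed, that of Jag2, which was high in endothelial cells too, also held none. Those of Notch1, Notch2 and Jag1 held 4, 3 and 3. GGAA was in 5 of the 7 member windows that RefSeq's table gave and in 93.4% of all 32851 windows of this length, with a median of 3 matches. The RBPJ letters TGGGAA, which contain GGAA, were in 0 of the 7 and in 21.6% of all windows. All 7 are receptor or ligand genes. No window was given for the target genes Hey1, Heyl and Hes1, so these counts do not cover them. CGGAAG, a longer ETS form, was in 1 of the 7, that of Notch2, and in 13.6% of all windows.

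Cell classes were rebuilt from the counts by clustering and named from marker genes. Any member or listed Notch pathway gene among the 3000 variable genes, 11 in all, was left out of the clustering. The classes therefore did not use the members' own values, although they come from the same cells. They held 2251 adipose stem cell-like (ASC-like) cells, 561 blood endothelial-like (EC-like) cells, 60 pericyte-like and 41 vascular smooth muscle-like (VSMC-like) cells, 137 macrophage-like cells and 22 lymphatic EC-like cells, while 189 cells in 3 clusters stayed unnamed. Reads per cell ran from 149931 to 3548334 with a median of 629323. Reads were summed per mouse and class where at least 10 cells were present, which gave 7 ASC-like, 5 EC-like, 2 mural-like (pericyte-like and VSMC-like together, mice 1 and 2) and 2 macrophage-like sums (mice 1 and 5). EC-like and ASC-like cells of 1 mouse often lay on different plates and sort gates. In mouse 1, 174 of 177 EC-like cells were on plate 171 and 242 of 244 ASC-like cells on plate 172. In mouse 2, 169 of 170 EC-like cells were on plate 874, and ASC-like cells were on plates 709 and 875. Mice 5 and 8 had both classes on 1 plate each. In mice 1, 2 and, for the most part, 6_7, class cannot be told apart from plate. Each class carried its own markers: the 4 EC markers (Pecam1, Cdh5, Kdr, Cldn5) summed to 2112 to 7401 CPM (counts divided by the library's total and scaled to 1e6) in EC-like sums and 3.54 to 29.1 in ASC-like sums. The mural-like sums carried 393 (mouse 1) and 4783 CPM (mouse 2) of the same EC markers, the latter within the range of the EC-like sums. The mural-like sum of mouse 2 was 13 pericyte-like cells without VSMC-like cells. All of them were on plate 874, sorted as PDGFRB-negative and CD31-positive, the plate of that mouse's EC-like cells. The part of EC transcripts in the mural values was examined in mouse 1 as described below. The 10 adipocyte genes summed to 1132 to 3278 CPM in EC-like sums, 147 and 715 in mural-like sums, 117 and 185 in macrophage-like sums and 1.84 to 34.5 in ASC-like sums, and their part in the class differences was not tested.

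Notch1, Notch4, Dll4, Jag2 and Hey1 were higher and Notch2 and Heyl lower in EC-like than in ASC-like cells, which is 7 of 10 members called. A gene was tested if it passed 600 counts in at least 2 sums of any class. Dll4 and Jag2 held at most 33 and 43 counts in an ASC-like sum, and Notch2 and Heyl at most 524 and 546 in an EC-like sum. These members passed only through classes where they were higher, so their direction was not independent of the filter. Calls needed an adjusted p below 0.05 and more than a 2.6-fold difference in edgeR's quasi-likelihood test with the mouse as a block, with Benjamini-Hochberg adjustment over 12844 genes. Of all genes tested in this comparison 21.8% were called, 8.20% higher and 13.6% lower. The median absolute log2 difference was 4.29 over the members and 0.855 over all genes. Against ASC-like cells, 7 of 10 members were called higher in mural-like cells (Notch1, Notch3, Notch4, Dll4, Jag2, Hey1 and Hes1) and none lower, beside 8.13% of all genes, 4.31% higher and 3.82% lower. Between mural-like and EC-like cells 1 of 10 was called, Notch3, beside 2.28% of all genes.

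**Figure D1:**
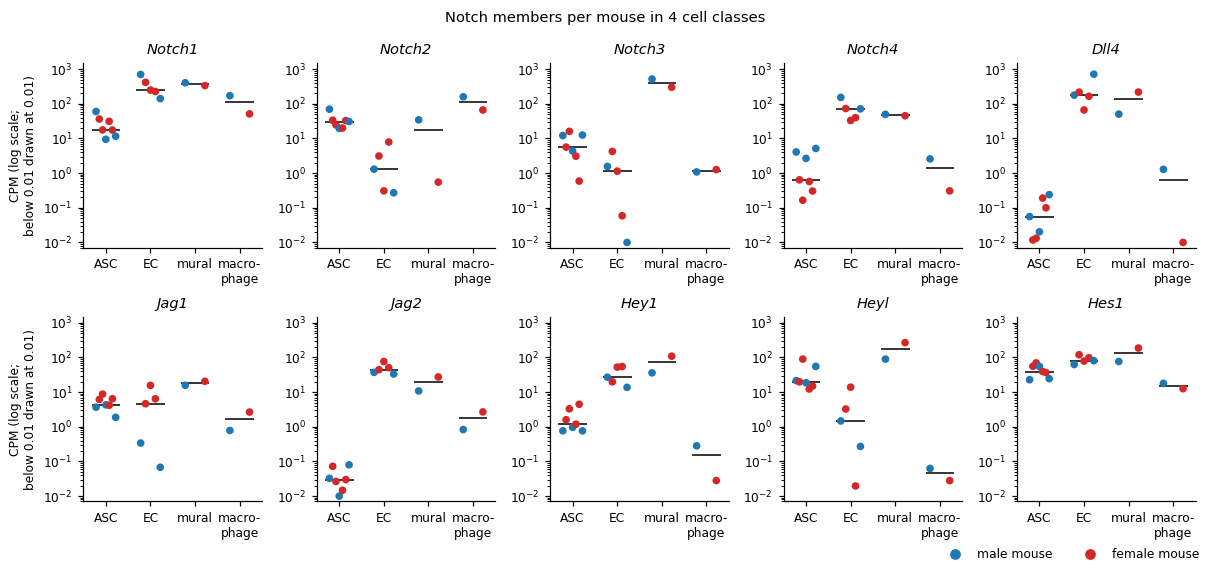
CPM of each member on a log scale (values below 0.01 drawn at 0.01) in the ASC-like, EC-like, mural-like and macrophage-like sums, 1 point per mouse, blue for male and red for female, with a line at the median. Dll4 and Jag2 of the 5 EC-like sums sit above all 7 ASC-like sums, and Notch3 of the 2 mural-like sums, at 301 and 519 CPM, sits above every other sum.

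Notch1, the broadly expressed receptor, was highest in endothelial and mural-like sums. It reached 702, 418, 249, 227 and 141 CPM in the EC-like sums of mice 1, 2, 5, 6_7 and 8, 404 and 336 in the mural-like sums of mice 1 and 2, and 172 and 51.3 in the macrophage-like sums of mice 1 and 5. ASC-like sums ran from 9.47 through a median of 17.6 to 60.0 CPM, so no EC-like or mural-like sum overlapped them, while the macrophage-like sum of mouse 5 did. The EC-like level was higher than the ASC-like one in 5 of 5 mice, by 3.29 on the log2 scale (SE 0.20, edgeR quasi-likelihood adjusted p = 1.042e-05).

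Notch4, the receptor gene known for its expression in endothelium, was 153, 73.1, 33.1, 40.0 and 71.5 CPM in the EC-like sums of mice 1, 2, 5, 6_7 and 8. It was 49.7 and 45.3 in the mural-like sums of mice 1 and 2, and 2.57 and 0.308 in the macrophage-like sums of mice 1 and 5. ASC-like sums held 0.165 to 5.15 CPM with a median of 0.641, below every EC-like and mural-like sum. The EC-like cells exceeded the ASC-like ones by 5.56 on the log2 scale (SE 0.61, edgeR quasi-likelihood adjusted p = 0.0001798).

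Notch2, a receptor with known roles in immune and stromal cells, followed the reverse order. It was 159 and 66.5 CPM in the macrophage-like sums of mice 1 and 5 and 19.5 to 70.2 (median 30.7) in the ASC-like sums, against 1.30, 3.12, 0.307, 7.91 and 0.271 in the EC-like sums of mice 1, 2, 5, 6_7 and 8. No EC-like sum reached the lowest ASC-like sum, and the log2 difference was −4.59 (SE 1.11, edgeR quasi-likelihood adjusted p = 0.01355, and 0.06244 without mouse 5). The 2 mural-like sums disagreed, at 34.5 CPM in mouse 1 and 0.549 in mouse 2.

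Notch3, the receptor of pericytes and smooth muscle, was 519 and 301 CPM in the mural-like sums of mice 1 and 2, above every other sum. The EC-like sums of mice 1, 2, 5 and 6_7 held 1.56, 4.24, 1.14 and 0.0589 CPM, and that of mouse 8 had 0 counts, which allows up to 0.203 CPM. Macrophage-like sums held 1.08 and 1.26, and ASC-like sums 0.590 to 16.1 with a median of 5.64. Mural-like exceeded EC-like cells by 7.88 on the log2 scale (SE 1.18, edgeR quasi-likelihood adjusted p = 0.008176, and 0.1991 without mouse 1). The same gene exceeded ASC-like cells by 5.16 (SE 1.27, edgeR quasi-likelihood adjusted p = 0.03828), a call that was lost without mouse 1 (0.3048), mouse 2 (0.1339), mouse 5 (0.1242) or mouse 6_7 (0.0754). Reads of Notch3 were present in 98 of 101 mural-like cells (97.0%, exact 95% interval 91.6 to 99.4%), 457 of 2251 ASC-like (20.3%), 92 of 561 EC-like (16.4%) and 21 of 137 macrophage-like cells (15.3%). After each cell was thinned to 150000 reads these shares were 92.1%, 11.1%, 6.09% and 5.11%, at median depths of 678793 reads for ASC-like, 658250 reads for pericyte-like, 613633 for VSMC-like, 536225 for EC-like and 664332 for macrophage-like cells before thinning. Intervals and limits here cover counting error only.

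Per kilobase of exon, the scale on which receptor levels can be set side by side, the leading receptor was Notch1 in EC-like, Notch3 in mural-like and Notch2 in both macrophage-like and ASC-like sums, by mean share. Notch1 made up a mean of 70.7% of the summed receptor level in EC-like sums (52.8 to 80.4%, n = 5) and Notch4 27.9% (18.8 to 47.1%). Notch3 made up 59.5% in mural-like sums (56.0 and 63.0%, n = 2), with Notch1 at 31.7%. Macrophage-like sums held 58.0% Notch2 and 40.2% Notch1 (n = 2), and ASC-like sums 50.6% Notch2 (41.2 to 69.5%, n = 7), 29.4% Notch1 and 15.9% Notch3. Notch2 was the largest share in 6 of 7 ASC-like sums and Notch1 in that of mouse 5, while neighbouring shares within the ASC-like class overlapped between mice.

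**Figure D2:**
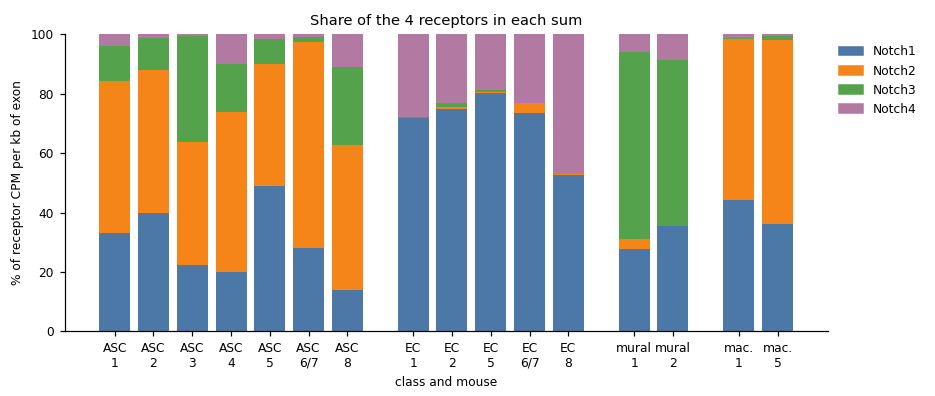
Stacked bars give the percentage of the 4 receptors' summed CPM per kb of exon in each sum, labelled by class (mac. for macrophage-like) and mouse. Notch1 is the largest part of all 5 EC-like bars (52.8 to 80.4%), Notch3 of both mural-like bars and Notch2 of both macrophage-like bars.

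Among the ligands, Dll4, the Delta-like ligand of sprouting and arterial endothelium, was 178, 218, 66.5, 165 and 716 CPM in the EC-like sums of mice 1, 2, 5, 6_7 and 8. ASC-like sums held 0.0118 to 0.239 CPM (median 0.0558), and the gap on the log2 scale was 10.78 (SE 1.31, edgeR quasi-likelihood adjusted p = 0.0003062). Reads were present in 380 of 561 EC-like cells (67.7%), 43 of 137 macrophage-like cells (31.4%) and 70 of 2251 ASC-like cells (3.11%), and in 54.1%, 11.7% and 0.934% after thinning. The macrophage-like cells with reads of Dll4 had a median of 2.00 CPM, against 117 CPM in the EC-like cells with reads. The macrophage-like sum of mouse 1 held 1.29 CPM and that of mouse 5 had 0 counts, which allows up to 0.084 CPM, so all macrophage-like cells with reads were from mouse 1. The mural-like sums of mice 1 and 2 held 50.5 and 218 CPM.

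Jag2, a Jagged ligand, was 37.2, 44.4, 76.3, 50.7 and 33.3 CPM in the EC-like sums of mice 1, 2, 5, 6_7 and 8 and 10.8 and 27.4 in the mural-like sums of mice 1 and 2, which both lay below all EC-like sums. Macrophage-like sums held 0.831 and 2.69 CPM. ASC-like sums ranged up to 0.0799 with a median of 0.0300, and mouse 4 had 0 counts among 246723174, which allows up to 0.0122 CPM. EC-like cells exceeded ASC-like cells by 9.78 on the log2 scale (SE 0.67, edgeR quasi-likelihood adjusted p = 1.888e-05).

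Jag1, the Jagged ligand that vessels and stroma share, passed the test in none of the 6 class comparisons. It was 15.8 and 20.6 CPM in the mural-like sums of mice 1 and 2, above all other sums, and 1.87 to 8.76 (median 4.30) in ASC-like sums. The EC-like sums spread widely, at 0.339, 4.63, 15.7, 6.42 and 0.0677 CPM in mice 1, 2, 5, 6_7 and 8, with both males below all 3 females. Between mural-like and EC-like cells its log2 difference was 3.11 (SE 1.29, edgeR quasi-likelihood adjusted p = 0.3228). Per kb of exon Dll4 made up 83.0% of the 3 ligands' summed level in EC-like sums (55.9 to 97.5%), Jag2 14.5% and Jag1 2.44%, whereas Jag1 made up 95.2% in ASC-like sums (81.4 to 99.5%).

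Hes1, the target gene shared by many cell types, had the narrowest range. It was 62.8, 120.2, 78.7, 98.5 and 80.9 CPM in the EC-like sums of mice 1, 2, 5, 6_7 and 8, 76.6 and 187 in the mural-like sums, 22.8 to 69.8 (median 39.3) in ASC-like sums, and 17.9 and 12.6 in the macrophage-like sums of mice 1 and 5. Both macrophage-like values lay below every other sum. The mural-like level exceeded the ASC-like one by 1.64 on the log2 scale (SE 0.31, edgeR quasi-likelihood adjusted p = 0.01249). The EC-like level exceeded it by 1.16 (SE 0.22, edgeR quasi-likelihood adjusted p = 0.003768), short of the 2.6-fold limit.

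Hey1, a target gene known from endothelium, was 27.0, 19.8, 52.8, 54.8 and 13.8 CPM in the EC-like sums of mice 1, 2, 5, 6_7 and 8 and 36.0 and 109 in the mural-like sums of mice 1 and 2. ASC-like sums held 0.762 to 4.46 (median 1.19) and the macrophage-like sums of mice 1 and 5 held 0.282 and 0.0280, both below every ASC-like sum. EC-like cells exceeded ASC-like cells by 4.30 on the log2 scale (SE 0.64, edgeR quasi-likelihood adjusted p = 0.0009228).

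Heyl, a target gene known from smooth muscle, took the opposite side of the endothelium. It was 89.7 and 268 CPM in the mural-like sums of mice 1 and 2 and 12.3 to 89.8 (median 19.9) in ASC-like sums, against 1.47, 3.25, 13.9, 0.0196 and 0.271 in the EC-like sums of mice 1, 2, 5, 6_7 and 8. The EC-like sum of mouse 5 lay above 1 ASC-like sum, the lowest at 12.3 CPM, and the other 4 lay below all of them. The macrophage-like sums had 4 counts (0.0627 CPM, mouse 1) and 1 count (0.0280 CPM, mouse 5). Heyl was lower in EC-like than in ASC-like cells by −4.28 on the log2 scale (SE 1.40, edgeR quasi-likelihood adjusted p = 0.04969). This call was lost without mouse 1 (0.1659), 2 (0.1065), 3 (0.05029), 6_7 (0.1204) or 8 (0.1165).

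EC transcripts were common in the mural-like cells, and several mural values differed when cells with them were left out. Of 101 mural-like cells, 69 (68.3%) had reads of at least 3 of Pecam1, Ptprb, Cdh5, Tie1 and Cldn5, 46 of 60 pericyte-like and 23 of 41 VSMC-like. When the mural-like class was limited to cells with reads of at most 2 of these genes, 28 cells of mouse 1 remained in the sum, and its 4 EC markers summed to 9.54 CPM in place of 393. Notch3 was then 575 CPM, Heyl 123, Hes1 93.1, Notch2 47.2 and Jag1 30.03, each above its value of 519, 89.7, 76.6, 34.5 and 15.8 over all mural-like cells of that mouse. Notch1 was 138 in place of 404 CPM, Hey1 2.84 in place of 36.0, Notch4 1.15 (17 counts) in place of 49.7, and Dll4 0.406 (6 counts) in place of 50.5. Jag2 had 0 counts among 14782786, which allows up to 0.203 CPM, in place of 10.8. Over all mice the limit took out 76.7% of pericyte-like and 56.1% of VSMC-like cells, so the mix of mural cells changed too. The part of that mix in these shifts was not tested. With these cells 1 of 10 members was called against ASC-like cells, Hes1, beside 5.16% of all genes, and Notch3 missed the limit with a log2 difference of 6.24 (edgeR quasi-likelihood adjusted p = 0.05166). Against EC-like cells 5 were called, Notch3 and Notch2 higher and Notch1, Notch4 and Jag2 lower, beside 11.3% of all genes.

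**Figure D3:**
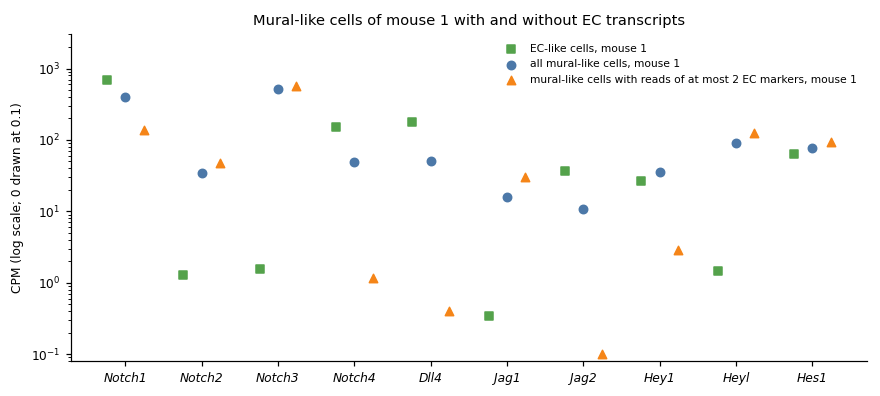
CPM of the members in mouse 1 on a log scale (0 drawn at 0.1): squares for EC-like cells, circles for all 82 mural-like cells and triangles for the 28 mural-like cells with reads of at most 2 EC markers. Notch4, Dll4, Jag2 and Hey1 drop from 10.8 to 50.5 CPM over all mural-like cells to at most 2.84, while Notch3, Heyl and Hes1 do not drop.

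Pericyte-like and VSMC-like cells could be compared within mouse 1 (44 and 38 cells), with no replicate and so no test. Notch3 was 455 CPM in pericyte-like and 597 in VSMC-like cells (exact Poisson 95% intervals 447 to 463 and 587 to 607), and Heyl was 88.8 and 90.8. Jag1 was 5.83 in pericyte-like and 27.7 in VSMC-like cells (4.97 to 6.81 and 25.6 to 29.99). Notch1 was 601 and 167, Notch4 90.05 and 1.005, Dll4 89.0 and 4.02, and Jag2 18.9 and 1.14. Notch2 was also higher in pericyte-like cells, at 55.0 and 9.83. In the same mouse the 4 EC markers summed to 709 CPM in pericyte-like and 12.15 in VSMC-like cells, and their part in these differences was not tested. The pericyte-like sum of mouse 2 (13 cells) held 301 CPM of Notch3, 268 of Heyl and 336 of Notch1, with 4783 CPM of the EC markers. Its Notch2 was 0.549 CPM (9 counts), below both values of mouse 1.

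Macrophage-like cells differed from the vessel classes in most members. Against EC-like cells 7 of 10 were called, Notch2 higher and Notch1, Notch4, Dll4, Jag2, Hey1 and Hes1 lower, beside 13.9% of all genes. Notch2 exceeded EC-like cells by 6.22 on the log2 scale (SE 1.57, edgeR quasi-likelihood adjusted p = 0.02747), a call that was lost without mouse 1 (0.06889) or mouse 5 (0.282). Without mouse 5, 2 of 10 members were called, and without mouse 1, 4. Against mural-like cells 8 of 10 were called, all lower, beside 10% of all genes, and 2 were called without mouse 1, 4 without mouse 2 and 2 without mouse 5. With the mural-like cells of few EC markers 4 were called, beside 13.9% of all genes, and the log2 difference turned to 0.66 for Notch4, 0.46 for Dll4 and 11.01 for Jag2, none of which passed the test. Against ASC-like cells 2 of 10 were called, Jag2 higher and Heyl lower, beside 15.0% of all genes, 5.95% higher and 9.08% lower, and both calls were lost without mouse 1 (edgeR quasi-likelihood adjusted p = 0.05011 for Jag2 and 0.2159 for Heyl). Notch1 exceeded ASC-like cells by 1.22 on the log2 scale (SE 0.26, edgeR quasi-likelihood adjusted p = 0.01187), short of the 2.6-fold limit. For Jag2 neither the macrophage-like nor the ASC-like sums reached the count filter. Of the 76 macrophage-like cells of mouse 1, 73 were on plate 171, which also held most EC-like cells of that mouse. The part of EC transcripts in the macrophage-like values was not tested.

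The scaling between libraries moved the median of all genes by more than 0.1 in some class comparisons. For EC-like against ASC-like cells it was −0.19 on the log2 scale with TMM (edgeR's trimmed mean of M-values) factors and −0.015 with library totals alone, and 7 of 10 members were called with either. The mural-like calls rested on 2 sums, and 4 members were called between mural-like and ASC-like cells without mouse 1 and 2 without mouse 2. Grouping cells by sort gate in place of clusters left 3 mice with both gates. Between the CD31 plates and the other PDGFRB plates no member was then called, the 7 called ones having adjusted p of 0.06909 to 0.2608 in edgeR's quasi-likelihood test, at which none of 12517 genes was called and 3199 had an unadjusted p below 0.05. Notch1 and Hey1, 2 members, were called when 1 plate was split by its column names, a split chosen after seeing the data, beside 7.91% of all genes. The log2 differences under these gates were 8.42 and 8.21 for Dll4, 5.38 and 5.34 for Notch4 and 2.73 and 2.98 for Notch1.

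ASC-like cells were divided within each mouse by marker scores into 808 ASC1a-like (Col15a1, G0s2, Cxcl14), 670 ASC1b-like (Clec11a, Fmo2, F3, Gdf10) and 773 ASC2-like cells (Dpp4, Cd55, Arl4d, Pi16). These are ranges of a score rather than cell types, and 498 cells (22.1%) lay within 0.25 of a boundary. They differ from the study's own clusters in male mice. Mouse 1 had 84 ASC1a-like cells here and none in the study's male ASC1a cluster. Mouse 4 had 114 ASC2-like cells here and almost none in the study's male ASC2 cluster. The receptor Notch1 and the target Heyl were higher in ASC1a-like than in ASC2-like cells, 2 of the 6 members that passed the count filter, beside 3.40% of all genes. Notch1 ran from 20.5 through a median of 29.5 to 130.1 CPM in the 7 ASC1a-like sums, from 4.36 through 24.5 to 47.0 in ASC1b-like sums and from 2.95 through 8.89 to 25.1 in ASC2-like sums. It was higher in ASC1a-like than in ASC2-like cells in 7 of 7 mice, although the groups overlapped, by 2.12 on the log2 scale (SE 0.35, edgeR quasi-likelihood adjusted p = 0.0004973). The call was lost when the mouse was left out of the design (0.07206). Markers of other cell types also differed with this division, in both directions. The 4 pericyte markers summed to 1.23 to 22.8 CPM (median 11.3) in ASC1a-like and 0.282 to 7.72 (1.34) in ASC2-like sums, higher in 7 of 7 mice with at most 1 marker at 0 in an ASC1a-like sum. The 5 capillary EC markers summed to 27.1 to 149 (median 52.0) against 1.19 to 14.4 (4.21), higher in 7 of 7 mice, and the 4 VSMC markers to 15.8 to 214 (47.9) against 5.62 to 200.4 (18.1), higher in 6 of 7. The 5 venous EC markers summed to 71.6 to 351.8 (median 130.6) against 32.2 to 151 (79.75), higher in 7 of 7. The 6 arterial EC markers went the other way, at 96.0 to 359.8 (229.1) against 140.7 to 420.1 (360.4), higher in 0 of 7. The 4 EC markers were higher in 3 of 7 mice, at 2.52 to 28.3 against 3.12 to 24.98 CPM. The 10 adipocyte genes summed to 2.08 to 99.9 (median 27.9) against 0.776 to 18.7 (3.05), higher in 6 of 7. The part of these markers in the differences of Notch1, Heyl and Notch3 was not tested.

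Heyl ran from 13.7 through 34.4 to 185 CPM in ASC1a-like sums, from 7.15 through 13.0 to 72.5 in ASC1b-like sums and from 3.75 through 10.7 to 16.8 in ASC2-like sums. It too was higher in 7 of 7 mice, by 2.19 (SE 0.41, edgeR quasi-likelihood adjusted p = 0.001558), and 14 of 14 alternatives kept this call. Notch3 was higher in 5 of 7 mice with a log2 difference of 2.74 (SE 1.00, edgeR quasi-likelihood adjusted p = 0.1053), and both DESeq2 and the likelihood ratio test called it. Notch2 had the other direction, higher in ASC2-like cells in 6 of 7 mice, with a log2 difference of −0.91 (SE 0.26, edgeR quasi-likelihood adjusted p = 0.02956) that was short of the fold limit. Hes1 differed by 0.56 (SE 0.17, edgeR quasi-likelihood adjusted p = 0.05013) and Jag1 by −0.63 (SE 0.50, 0.556). In single cells the same order held: Heyl had reads in 49.3% of ASC1a-like, 36.7% of ASC1b-like and 29.0% of ASC2-like cells, and in 35.9%, 20.6% and 13.97% after thinning, against 3.65% and 1.46% in macrophage-like cells. Between ASC1b-like and ASC2-like cells 0 of 6 members were called by edgeR's quasi-likelihood test, its likelihood ratio test or DESeq2, beside 2.95% of all genes, and 3 had an unadjusted p below 0.05. Between ASC1a-like and ASC1b-like cells 0 of 6 were called by the same 3 tests, beside 0.215% of all genes, and 2 had an unadjusted p below 0.05.

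**Figure D4:**
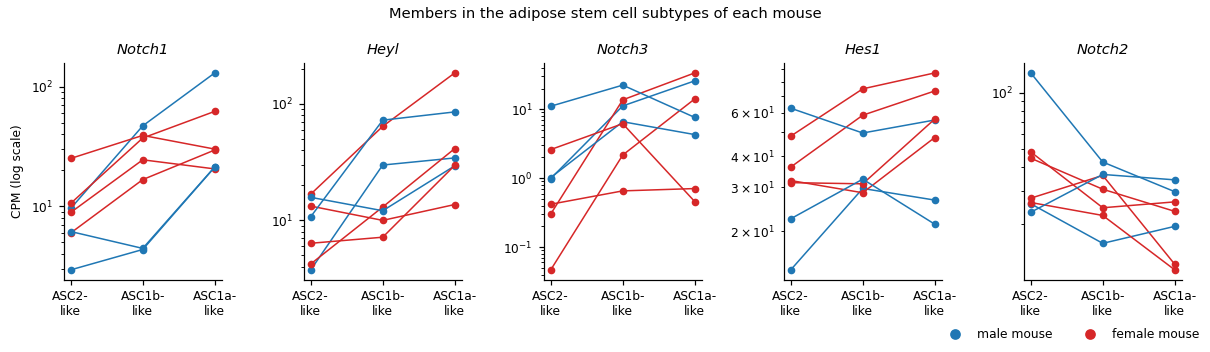
CPM (log scale, 1 axis per gene) of 5 members in the ASC2-like, ASC1b-like and ASC1a-like sums, with a line for each of the 7 mice, blue for male and red for female. Notch1 and Heyl end higher in ASC1a-like than they begin in ASC2-like cells in 7 of 7 mice, and Notch2 ends lower in 6 of 7.

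The 561 EC-like cells were divided in the same way into 142 arterial-like, 271 capillary-like and 148 venous-like cells, of which 201 (35.8%) lay within 0.25 of a boundary. No member was called between them by edgeR's quasi-likelihood test: 0 of the 6 tested in arterial-like against capillary-like (0% of all genes called), in venous-like against capillary-like (0%) and in arterial-like against venous-like cells (0%). The likelihood ratio test and DESeq2 called 0 as well, and an unadjusted p below 0.05 was found for 1 member, Hes1 between venous-like and capillary-like cells (log2 difference −1.64, SE 0.71, lower in 5 of 5 mice). Hey1 was 43.2, 41.1, 84.1 and 111 CPM in the arterial-like sums of mice 1, 2, 5 and 6_7. In the venous-like sums of mice 1, 2, 6_7 and 8 it was 7.94, 6.92, 0.181 and 33.6, and that of mouse 5 had 0 counts, which allows up to 0.557 CPM. Every arterial-like sum of Hey1 lay above every venous-like sum, with a log2 difference of 3.49 (SE 2.07, edgeR quasi-likelihood adjusted p = 1). Dll4 was 114, 333, 61.4 and 184 CPM in the arterial-like and 233, 188, 69.0, 130.4 and 881 in the capillary-like sums of mice 1, 2, 5, 6_7 and, for capillary-like, 8, and these overlapped. The 22 lymphatic EC-like cells, pooled over 4 mice, held 808 CPM of Notch1 and 107 of Dll4, against 2.36 of Notch4, 0.295 of Jag2 (4 counts) and 0.0737 of Notch3 (1 count).

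The sexes differed in 1 member within ASC-like cells. Notch4 was 4.09, 2.66 and 5.15 CPM in male mice 1, 4 and 8 and 0.641, 0.165, 0.573 and 0.305 in female mice 2, 3, 5 and 6_7, without overlap, although all of these lie far below the EC-like levels. The log2 difference was 4.03 (SE 0.70, edgeR quasi-likelihood adjusted p = 0.0184), which made 1 of the 8 members tested beside 2.23% of all genes. Notch4 passed the count filter only through the male sums, at 880, 656 and 710 counts in mice 1, 4 and 8. The female sums of mice 2, 3, 5 and 6_7 held 381, 25, 39 and 61, so the direction was not independent of the filter. Within subtypes the sexes did not overlap in ASC1b-like cells (2.80 to 12.02 CPM in males, 0.0708 to 1.67 in females) and ASC2-like cells (3.33 to 5.80 against 0 to 0.475), but did in ASC1a-like cells, at 4.03, 0.575 and 0.168 CPM in males 1, 4 and 8 and 1.20, 0.321, 0.0917 and 0.319 in females 2, 3, 5 and 6_7. Whether the difference depended on the subtype was not tested. The adjusted p over all ASC-like cells rose to 0.07731 without mouse 6_7 and 0.0694 without mouse 8. With library totals alone in place of TMM factors the difference was 3.24 (edgeR quasi-likelihood adjusted p = 0.01636), since the median of all genes moved from 0.04 to −0.60 and the calls from 183 higher and 81 lower in males to 88 and 223. Reads of Notch4 were present in 115 of 768 male (14.97%) and 38 of 1483 female ASC-like cells (2.56%), and in 7.68% and 1.48% after thinning. The 4 EC markers summed to 4.94 to 12.4 CPM in the male and 3.54 to 29.1 in the female ASC-like sums, so they did not separate the sexes. Male ASC-like cells lay mostly in other clusters than female ones (clusters 4, 7, 9 and 12 against 0, 2, 3, 5 and 6), and sex cannot be told apart from the plates each sex was sorted on.

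In EC-like cells 0 of 6 members were called between the sexes by edgeR's quasi-likelihood test, beside 0.0493% of all genes, with 2 at an unadjusted p below 0.05. These were Dll4 (447 ± 380 CPM in 2 males and 150 ± 76.6 in 3 females, SD, log2 difference 2.41, SE 0.64, adjusted p = 0.5814) and Notch4 (112 ± 57.9 and 48.7 ± 21.4, log2 difference 1.99, SE 0.53, adjusted p = 0.578). DESeq2 called both and the likelihood ratio test neither. Cluster 8 held 173 male EC-like cells and cluster 1 held 33, beside 349 female ones. Of the male EC-like cells 177 were of mouse 1 and 29 of mouse 8, so the male share of cluster 8 was mostly mouse 1. In the study's own clustering the EC of mouse 8 lay mostly in the EC cluster that held most female cells. Whether the EC-like against ASC-like difference of a member depended on sex was tested as an interaction, and 0 of 10 were called by edgeR's quasi-likelihood test, its likelihood ratio test or DESeq2, beside 0% of all genes, with Jag1 and Notch4 at an unadjusted p below 0.05.

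**Figure D5:**
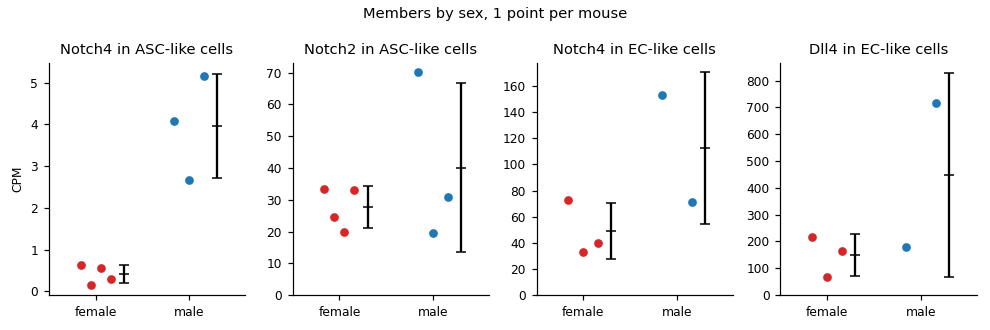
CPM of Notch4 and Notch2 in ASC-like cells and of Notch4 and Dll4 in EC-like cells, 1 point per mouse, with the mean and SD of each sex as a bar beside the points. Notch4 of the 3 male ASC-like sums (2.66 to 5.15 CPM) lies above that of the 4 female sums (0.165 to 0.641), and the sexes overlap in the other 3 panels.

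Of 45 other Notch pathway genes listed, 42 were in the table and 36 passed the count filter. In EC-like against ASC-like cells 12 of the 36 were called (33.3%, beside 21.8% of all genes), 6 higher and 6 lower. In mural-like cells 3 were called against ASC-like cells (8.33%, beside 8.13%), 2 higher and 1 lower, and 1 higher against EC-like cells (2.78%, beside 2.28%), shares close to those of all genes. In macrophage-like cells 7 were called against ASC-like cells (19.4%, beside 15.0%), 5 higher and 2 lower, 7 against EC-like cells (19.4%, beside 13.9%), 2 higher and 5 lower, and 6 against mural-like cells (16.7%, beside 10%), 3 higher and 3 lower. Nrarp, a target that feeds back on Notch signalling, was 10.5 to 56.7 CPM in the 5 EC-like sums and 29.4 and 47.2 in the mural-like sums, while its highest ASC-like sum held 0.0145 CPM. Mfng, a glycosyltransferase that modifies Notch receptors, was 54.75 to 106 CPM in EC-like and 0.0232 to 0.132 in ASC-like sums (log2 difference 9.92, SE 0.50, edgeR quasi-likelihood adjusted p = 4.556e-06). Nrarp and Mfng passed the count filter only through classes other than ASC-like, so their direction was not independent of it. The ligand gene Dll1 was 10.4 to 27.3 CPM in EC-like and 0.0147 to 1.71 in ASC-like sums (log2 difference 6.08, SE 1.096, edgeR quasi-likelihood adjusted p = 0.002844). Rbpj, the DNA-binding partner, was 115 and 161.5 CPM in macrophage-like and 3.86 to 25.02 in EC-like sums (log2 difference 4.58, SE 0.53, edgeR quasi-likelihood adjusted p = 0.000706), and 17.8 to 65.9 in ASC-like sums. Numbl and Dtx4, which act on the turnover of Notch proteins, were 26.3 to 71.1 and 13.2 to 46.15 CPM in ASC-like sums against at most 5.215 and 2.73 in EC-like sums, and both were called lower in EC-like cells. Among other genes of ligand and receptor turnover, Neurl3 was 38.6 and 79.8 CPM in macrophage-like and 0.116 to 5.565 in ASC-like sums (log2 difference 7.02, SE 1.2455, edgeR quasi-likelihood adjusted p = 0.0053), and it was also called higher in EC-like than in ASC-like cells. Neurl1b was 0.1098 and 0.280 CPM in macrophage-like, 1.04 to 10.6 in ASC-like and 5.202 to 52.2 in EC-like sums, and was called lower in macrophage-like cells against ASC-like, EC-like and mural-like cells. Dtx3 was 2.79 and 4.65 CPM in macrophage-like, 31.55 to 98.6 in ASC-like and 71.35 and 227 in mural-like sums, and was called lower in macrophage-like cells against both. Aph1c, a subunit gene of the gamma-secretase that cleaves Notch, was 12.75 and 20.8 CPM in macrophage-like against 0.897 to 4.44 in ASC-like sums (log2 difference 3.91, SE 0.75, edgeR quasi-likelihood adjusted p = 0.007832).

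Across the 16 class sums, which share mice, the genes whose log2(CPM + 1) followed a member most closely among 12844 differed between members (Pearson r over 16 sums). For Dll4 they were Tie1 (0.994), Cdh5 (0.991) and Robo4 (0.99), for Jag2 Palmd (0.995), Itga6 (0.994) and Ushbp1 (0.993), and for Notch4 Tcf15 (0.959), Sox7 (0.953) and 4930578C19Rik (0.952). For Notch3 they were Foxs1 (0.93), Ppp1r14a (0.924) and Itga7 (0.911), for Notch1 Rin3 (0.958) and for Hey1 Itga1 (0.958). For Notch2 the closest was Abca9 (0.927), for Heyl Esyt2 (0.923), for Hes1 Sept4 (0.952) and for Jag1 Id4 (0.875).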

How the data were processed

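Single cells of mouse pgWAT were profiled by Smart-seq2 on 11 plates. Per the labels and the methods of the study, the authors demultiplexed 50-base single reads with bcl2fastq, aligned them with STAR to mm10 with the ERCC spike-ins, quantified with Salmon and deposited 1 table of counts per gene and cell. Tool versions are not given in the sources used here. The 72 ERCC rows, 1.98% of reads, were left out of library sizes and tests. No molecular identifiers were used, so reads are not independent molecules.

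Cells were clustered in Seurat 5.3.0 (3000 variable genes without the Notch genes, 14 principal components, resolution 1.1) and clusters named from marker lists. No doublet caller was run. A cluster stayed unnamed where adipocyte genes led it or its mitochondrial share was high. Counts were summed per mouse and class with at least 10 cells, and ASC-like and EC-like cells were divided by the highest marker score. Genes reaching 600 counts in 2 or more sums were tested with edgeR 4.0.16 (quasi-likelihood, TMM, Benjamini-Hochberg over all tested genes, called at adjusted p below 0.05 and above 2.6-fold) in R 4.3.3. The mouse was a block in class and subtype comparisons. By the labels, sums of 1 number come from the same animal, except 6_7, which covers 2 animals. Sex comparisons had no block, and no design held the plate. DESeq2 1.42.0, other scalings, filters, classes and leaving out each mouse were alternatives. On simulated counts for EC-like against ASC-like cells, 26.6% of 4-fold and 70.8% of 16-fold changes were called. The 10 members, the pathway list and the markers were chosen with earlier results of these data known. Pathway genes were named where called above 8-fold in a class comparison, and the 3 genes most like a member by Pearson r of log2(CPM + 1). The depth ran from 14765132 to 594421842 counts per class sum, 21815028 to 213686239 per ASC subtype sum and 4492693 to 88980121 per EC subtype sum. Exact Poisson and Clopper-Pearson 95% intervals, and the limit of 3 counts where a count was 0, cover counting error only.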

Additional observations from a re-analysis of the deposited data

Results flagged for a closer look

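In 25 groups of mice the highest or lowest value was tested for standing apart with Dixon's test, which marks about 1 in 20 groups by chance. Notch2 of ASC-like cells stood apart in mouse 1, at 70.16 CPM against a median of 30.7 over 7 mice. Dll4 of EC-like cells stood apart in mouse 8, at 715.9 CPM, where the sum held 29 cells. Heyl of EC-like cells stood apart in mouse 5, at 13.9 CPM, and Heyl of ASC-like cells in mouse 3 among the 4 females, at 89.85 CPM. Outside the classes compared, unnamed cluster 14 held 354.6 CPM of Notch2 and 120.5 CPM of Jag1 in mouse 6_7, above every sum of the 4 classes. Its cells had ASC markers and a median mitochondrial share of 6.96%, and whether that share bears on these levels was not tested.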

How the results depend on the processing

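Of 205 counts of called members under an alternative, 173 stayed within 1.5 times the count reported. The 173 include counts that stayed at 0 in comparisons where 0 members were called. Of 550 values of called members 458 kept their direction and call. Without the mouse as a replicate block, 2 members were called between mural-like and EC-like, 4 between macrophage-like and ASC-like, 5 between macrophage-like and mural-like and 1 between ASC1a-like and ASC2-like cells. With classes from each cell's own markers these first 3 counts were 0, 4 and 2, and mural-like against ASC-like gave 2. With mural-like cells of few EC markers, which leaves 1 mural-like sum, mural-like gave 1 against ASC-like and 5 against EC-like cells, and macrophage-like against mural-like gave 4. There the log2 difference of mural-like to ASC-like cells turned to −1.30 for Notch4 and −5.92 for Jag2, and that of macrophage-like to mural-like cells to 0.66 for Notch4, 0.46 for Dll4 and 11.01 for Jag2, which had 0 mural-like counts. Sort gates in place of clusters gave 0 members for EC-like against ASC-like cells, and 2 with 1 plate split, chosen after seeing the data. DESeq2 called 2 between mural-like and EC-like cells (the likelihood ratio test 2), 4 between macrophage-like and ASC-like cells and 2 between the sexes in EC-like cells. Leaving out 1 mouse gave 6 to 7 members in EC-like against ASC-like, 2 to 7 in mural-like against ASC-like, 0 to 2 in mural-like against EC-like, 0 to 3 in macrophage-like against ASC-like, 2 to 7 in macrophage-like against EC-like and 2 to 8 in macrophage-like against mural-like cells. It gave 2 to 3 in ASC1a-like against ASC2-like, 0 to 1 in ASC1b-like against ASC2-like, 0 to 2 between the sexes in ASC-like and 0 to 1 in EC-like cells. Apart from fewer samples, the cause was not tested. A lone sum is assumed to vary like the other groups.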

Other observations

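In mouse 2, ASC-like cells were sorted by DPP4, an ASC2 marker, onto separate plates, which gives the subtype order without marker scores but with 1 plate each and so no test. Notch1 was 27.1 CPM on the DPP4-positive plate (379 cells) and 46.3 on the DPP4-negative plate (368 cells), and Heyl was 14.4 and 25.6. Notch2 had the other order, at 42.2 and 24.4 CPM. The 121 cells of unnamed cluster 11, which carried EC markers and were led by adipocyte genes, held 144 CPM of Notch1, 52.9 of Notch4, 58.1 of Dll4 and 34.2 of Jag2.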
